A study of Mus musculus with 12 samples.

Results

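Sialic acids are acidic sugars that cap the glycans of cell surface proteins and lipids, and 9 mouse genes of their synthesis and transfer were followed here across all 12 libraries of a lymphoma line treated with the inhibitor WM-1119. The 9 genes, Gne, Nans, Cmas, Slc35a1, Cmah, St6gal1, St3gal1, St3gal2 and St3gal6, were taken by symbol from 26305 entries with a gene identifier. All 9 passed the filter on low counts that left 11997 genes for testing. The set was selected on results of these data, the CPM values by group that are described here (CPM are read counts scaled to a common library total), so for these 9 genes fold changes and counts past a threshold are a description, given without p-values. The cells were EMRK1184luc, a B cell lymphoma line from a female Eµ-Myc transgenic mouse, in which Myc is driven by the immunoglobulin heavy chain enhancer. All groups carried the same luciferase lentivirus. The 4 groups of 3 libraries received 5 µM WM-1119, an inhibitor of the MYST histone acetyltransferases KAT6A and KAT6B, or its vehicle DMSO, for 3 or 6 days. A single line from 1 mouse was used, so the libraries do not sample different tumours, and nothing says that the replicates came from separate cultures beyond being called biological. The p-values then measure the spread between these samples, which may be technical.

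Vertebrate cells make the sialic acid Neu5Ac from UDP-GlcNAc in the cytosol, join it to CMP in the nucleus and carry CMP-Neu5Ac into the Golgi, where sialyltransferases place it on galactose in α2,3 or α2,6 linkage. Most mammals other than humans also convert CMP-Neu5Ac to CMP-Neu5Gc, which differs by a single hydroxyl group. On B cells these caps are read by lectins of the Siglec family, among them CD22, an inhibitory coreceptor of the B cell receptor. Mouse CD22 binds α2,6-linked sialic acid and prefers Neu5Gc, the product of the Cmah pathway on glycans made by ST6GAL1.

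Library totals lay between 14691369 and 41607926 counts. Of the 8 B cell markers 7 exceeded 1 CPM in every group, while the CD20 gene Ms4a1 had a group mean of at most 0.0189 CPM. Fibroblast markers summed to 0.613 to 32.9 CPM over the 10 genes of that list, and 5 libraries had over 1 CPM of Col1a1. These were WM-1119 replicate 2 of 3 days and replicates 1 and 2 of both groups of 6 days. They are called below the 5 libraries that held Col1a1, although the other libraries also had 0.315 to 0.975 CPM of it. In group means, Col1a2, Col3a1, Col5a1, Sparc and Postn were, like Col1a1, higher at 6 than at 3 days with either treatment. Dcn was lower with WM-1119, at 0.0233 and 0.0399 CPM at 3 and 6 days, against 0.225 and 0.260 CPM in DMSO. Lum, Pdgfra and Pdgfrb had group means of at most 0.246 CPM. Whether the 5 libraries held fibroblasts was not tested. Of 7 tested B cell markers 4 were called at 3 days, 1 of them higher, and 5 at 6 days, 2 of them higher, where 24.4% and 30.8% of all genes were called. Pax5, a B cell transcription factor gene, had log2 fold changes of -0.47 ± 0.05 and -0.58 ± 0.05 (edgeR, adjusted p = 2.37e-07 and 5.94e-09). Cd79b, a B cell receptor subunit gene, had 0.51 ± 0.05 and 0.48 ± 0.05 (adjusted p = 2.45e-07 and 2.46e-07). Results that rest on the 5 libraries are given with and without them where that changes them. Without them 1 library was left in each group of 6 days, so that a test at 6 days then sets 1 library against 1 and takes its spread from the other groups.

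Per kilobase of the gene length deposited with the counts (RPKM), St6gal1 and Nans were the most abundant of the 9 genes and St3gal2 the least. In DMSO at 3 days the mean levels were 36.7 RPKM for St6gal1, 35.4 for Nans, 23.0 for St3gal6, 19.7 for Cmas, 19.3 for Gne, 7.99 for Cmah, 6.94 for St3gal1, 6.82 for Slc35a1 and 0.229 for St3gal2. Neighbours in this order whose 3 libraries overlapped were St6gal1 and Nans, Cmas and Gne, and St3gal1 and Slc35a1. In WM-1119 at 3 days Nans stood first at 36.1 RPKM, St3gal1 had moved above St3gal6, and Cmah, at 4.66 RPKM, was below Slc35a1 at 8.26 RPKM. There the libraries of St3gal6 and Slc35a1 overlapped. In DMSO at 6 days the order was St6gal1, Nans, St3gal6, Cmas, Gne, Cmah, Slc35a1, St3gal1 and St3gal2, from 38.0 to 0.232 RPKM, with no overlap between neighbours. The order at 6 days in WM-1119 was the same as at 3 days in WM-1119, and there no neighbours overlapped. St3gal2 stayed at 0.229 to 0.277 RPKM in all 4 groups.

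**Figure D1:**
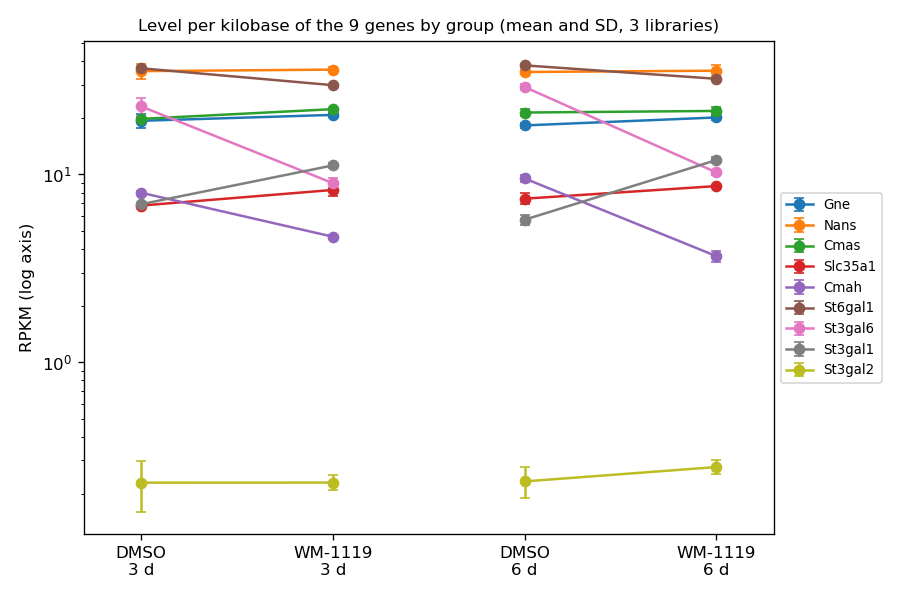
Level of each gene per kilobase (RPKM, logarithmic axis) in the 4 groups, as mean and SD of 3 libraries, with lines joining DMSO and WM-1119 of the same day. The lines of St3gal1 and St3gal6 cross between DMSO and WM-1119 at both times, while those of Nans and Cmas are nearly flat.

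Over the 9 genes, 3 were higher and 3 lower with WM-1119 at 3 days in the fit across all genes (edgeR quasi-likelihood test, adjusted p below 0.05), and the same counts held at 6 days. Of all 11997 genes, 24.4% passed that threshold at 3 days (11.8% higher and 12.6% lower) and 30.8% at 6 days (15.7% higher and 15.1% lower). Since the genes were named with these results known, the counts are read against those shares only as a description. Their median log2 fold change was 0.03 at both times, against 0.002 and -0.004 over all tested genes. The genes of the enzymes and the carrier that make and supply CMP-Neu5Ac had log2 fold changes between 0.03 and 0.28. The larger differences lay in Cmah and in 2 of the 4 sialyltransferase genes.

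Gne encodes the bifunctional epimerase and kinase that starts sialic acid synthesis from UDP-GlcNAc and is the rate-limiting step of the pathway (chromosome 4, 44034075 to 44084177, mm10). The DMSO libraries of 3 days had 112, 117 and 100.0 CPM and the WM-1119 libraries 121, 119 and 115 CPM, so the groups overlapped. At 6 days the DMSO libraries had 99.8, 107 and 105 CPM and the WM-1119 libraries 111, 115 and 117 CPM, without overlap. The log2 fold changes were 0.10 ± 0.05 (SE) and 0.14 ± 0.05. The call at 6 days lay at the threshold and ended in 14 of 22 alternatives, among them RLE scaling, DESeq2 and limma voom. It also ended when any 1 of these libraries was left out: DMSO replicates 1 and 3 or any WM-1119 replicate of 6 days, or DMSO replicate 1 or any WM-1119 replicate of 3 days.

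Nans encodes the synthase that condenses ManNAc 6-phosphate with phosphoenolpyruvate (chromosome 4, 46489329 to 46503438). Its libraries overlapped at both times, with 61.3 to 74.3 CPM in DMSO and 66.9 to 70.6 CPM in WM-1119 at 3 days, and 64.5 to 67.9 and 64.2 to 73.1 CPM at 6 days. The log2 fold change was 0.03 ± 0.06 at each time and it was not called.

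Cmas encodes the nuclear enzyme that activates Neu5Ac with CMP (chromosome 6, 142756686 to 142775714). At 3 days the DMSO libraries had 34.0, 35.6 and 34.6 CPM and the WM-1119 libraries 39.2, 39.7 and 38.5 CPM, a log2 fold change of 0.17 ± 0.06. That call ended without any single 1 of the 6 libraries of 3 days, with DESeq2, without a filter on low counts and without the 5 libraries that held Col1a1. At 6 days the groups overlapped, at 36.0 to 39.1 and 36.7 to 40.6 CPM, and the difference was 0.03 ± 0.06.

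Slc35a1 encodes the Golgi carrier that exchanges CMP-sialic acid for CMP (chromosome 4, 34663257 to 34688113). It had 14.1, 13.8 and 13.9 CPM in DMSO and 18.0, 16.9 and 15.6 CPM in WM-1119 at 3 days. At 6 days it had 15.1, 14.1 and 16.2 CPM in DMSO and 17.7, 17.4 and 17.9 CPM in WM-1119. Every WM-1119 library lay above every DMSO library of its day. The log2 fold changes were 0.28 ± 0.08 and 0.22 ± 0.08. The call at 3 days ended when DMSO replicate 2, WM-1119 replicate 1 or WM-1119 replicate 2 of that day was left out, and without the 5 libraries that held Col1a1. At 6 days it ended in 11 of 22 alternatives, DESeq2 and the fit of those 2 groups alone among them. Leaving out any WM-1119 library of 6 days, or replicate 1 or 2 of the DMSO libraries of that day, ended it, as did leaving out DMSO replicate 1 or WM-1119 replicate 2 of 3 days.

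**Figure D2:**
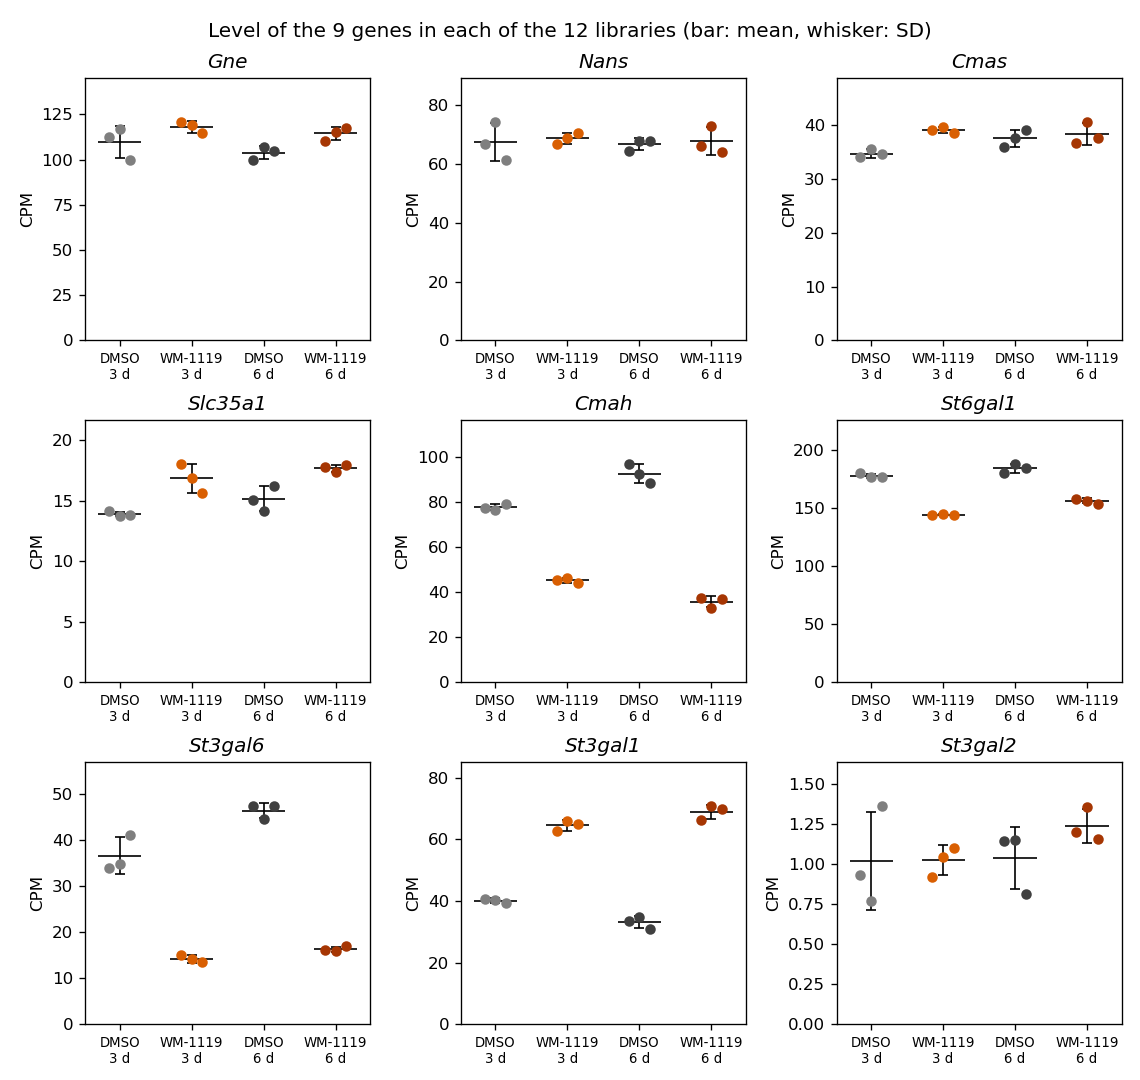
CPM of each of the 9 genes in every library, with replicates 1 to 3 from left to right, the mean as a bar and the SD as a whisker, and each vertical axis starting at 0. Cmah, St6gal1 and St3gal6 are lower in every WM-1119 library than in any DMSO library of either day, and St3gal1 is higher in every WM-1119 library.

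Cmah encodes the hydroxylase that turns CMP-Neu5Ac into CMP-Neu5Gc and is the source of Neu5Gc in mouse cells (chromosome 13, 24327404 to 24477289). At 3 days the DMSO libraries had 77.7, 76.7 and 79.4 CPM and the WM-1119 libraries 45.4, 46.6 and 44.3 CPM. At 6 days they had 97.1, 92.6 and 88.7 CPM in DMSO and 37.4, 33.0 and 37.0 CPM in WM-1119. No WM-1119 library reached the lowest DMSO library of its day. Cmah was thus 1.71-fold lower at 3 days (log2 fold change -0.78 ± 0.06) and 2.60-fold lower at 6 days (-1.38 ± 0.06). Under all alternatives tried the log2 fold change lay between -0.80 and -0.75 at 3 days and between -1.42 and -1.26 at 6 days, and it passed the threshold in each.

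The difference between the effects at 6 and 3 days was -0.60 ± 0.08 for Cmah on the log2 scale, past the threshold that 0.725% of all genes passed in that contrast, 0.400% with a higher and 0.325% with a lower effect at 6 days. Cmah and St3gal1 were the 2 of the 9 genes that passed it. The mean in DMSO was 77.9 ± 1.39 CPM at 3 days and 92.8 ± 4.17 CPM at 6 days (SD, n = 3 each), and in WM-1119 it was 45.4 ± 1.13 and 35.8 ± 2.47 CPM. The levels of DMSO and WM-1119 therefore lay further apart at 6 days on both sides. Without the 5 libraries that held Col1a1 the difference was -0.47 and no longer passed, with 1 library left in each group of 6 days. An annotated long noncoding RNA gene, Gm11342, lies across part of the Cmah span and was not counted in the table. The sources used here do not give whether counting used strand, so reads from it could not be told apart.

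RefSeq lists 2 starts for Cmah. The 300 bases around each are printed because Cmah and St3gal6 had the largest falls among the 9 genes. Each window runs from 250 bases before the start to 50 after it (GRCm38.p6), with matches to the searched motifs in capitals.
Cmah first start, chr13:24327154-24327453, plus strand: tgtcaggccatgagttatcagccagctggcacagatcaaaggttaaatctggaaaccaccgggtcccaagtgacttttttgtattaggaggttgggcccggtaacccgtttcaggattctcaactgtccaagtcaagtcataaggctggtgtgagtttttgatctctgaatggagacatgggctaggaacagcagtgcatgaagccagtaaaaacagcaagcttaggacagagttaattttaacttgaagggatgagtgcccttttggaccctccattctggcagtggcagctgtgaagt
Cmah second start, chr13:24414872-24415171, plus strand: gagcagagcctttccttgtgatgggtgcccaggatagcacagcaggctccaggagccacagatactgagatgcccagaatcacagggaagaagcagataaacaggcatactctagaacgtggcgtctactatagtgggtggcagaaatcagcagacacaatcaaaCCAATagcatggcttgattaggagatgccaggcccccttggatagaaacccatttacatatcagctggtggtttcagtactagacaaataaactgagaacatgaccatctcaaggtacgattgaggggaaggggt

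The motifs searched, on both strands, were CACGTG (the E-box), GGGCGG (the GC box), CCAAT (the CCAAT box), GGAAGT (an ETS core) and CCCNNGGG (an EBF core, in which N is any base). The first Cmah window held none of the 5, and the second held 1 CCAAT, 85 to 81 bases before the start. Of all 32851 promoter windows of this length 7.15% held the E-box, 35.7% the GC box, 37.4% CCAAT, 23.8% the ETS core and 13.7% the EBF core. Both Cmah windows had 3 CpG dinucleotides, against a median of 7 over all windows. Counts per gene do not tell which start the reads came from.

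St6gal1 encodes the transferase that puts sialic acid in α2,6 linkage on N-glycans and makes the ligands of CD22 (chromosome 16, 23224729 to 23360350). It had 179.6, 177 and 176 CPM in DMSO and 144, 145 and 144 CPM in WM-1119 at 3 days. At 6 days it had 180.0, 188 and 184 CPM in DMSO and 158, 156 and 154 CPM in WM-1119. The replicates were close and the groups did not overlap. The difference was small, 1.23-fold lower at 3 days (log2 fold change -0.30 ± 0.04) and 1.18-fold lower at 6 days (-0.24 ± 0.04). It passed the threshold in every alternative tried, and the change between times, 0.06 ± 0.06, did not.

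St3gal6 encodes an α2,3-sialyltransferase that acts on type 2 chains of galactose and GlcNAc and takes part in making selectin ligands (chromosome 16, 58469742 to 58524260). Its DMSO libraries had 34.0, 34.8 and 41.3 CPM at 3 days and 47.4, 44.6 and 47.5 CPM at 6 days. The WM-1119 libraries had 15.2, 14.2 and 13.5 CPM at 3 days and 16.1, 15.9 and 17.0 CPM at 6 days. Every WM-1119 library had less than 18 CPM and every DMSO library more than 33 CPM. St3gal6 was 2.56-fold lower at 3 days (log2 fold change -1.36 ± 0.08) and 2.85-fold lower at 6 days (-1.51 ± 0.08). Over the alternatives it lay between -1.41 and -1.26 and between -1.54 and -1.49, past the threshold each time. Its annotated span shares 4 bases with that of the neighbouring gene Dcbld2, which had a mean of 2.63 CPM. The St3gal6 span also shares 7223 bases with Gm33475, a long noncoding RNA gene that was not counted. As for Cmah, reads from Gm33475 could not be told apart. The spans of Cmas, St6gal1, St3gal1, St3gal2 and Nans also overlap annotated noncoding RNA genes. Of these, only BC106179, which overlaps St6gal1, was counted, with a mean of 0.709 CPM.

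RefSeq also lists 2 starts for St3gal6, whose windows differ in base composition.
St3gal6 first start, chr16:58524204-58524503, minus strand: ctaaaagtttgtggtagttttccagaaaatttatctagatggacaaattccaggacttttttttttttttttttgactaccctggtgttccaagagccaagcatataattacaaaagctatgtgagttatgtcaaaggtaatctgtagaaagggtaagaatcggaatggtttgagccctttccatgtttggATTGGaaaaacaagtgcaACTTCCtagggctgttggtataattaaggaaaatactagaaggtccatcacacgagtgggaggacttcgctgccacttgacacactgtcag
St3gal6 second start, chr16:58523377-58523676, minus strand: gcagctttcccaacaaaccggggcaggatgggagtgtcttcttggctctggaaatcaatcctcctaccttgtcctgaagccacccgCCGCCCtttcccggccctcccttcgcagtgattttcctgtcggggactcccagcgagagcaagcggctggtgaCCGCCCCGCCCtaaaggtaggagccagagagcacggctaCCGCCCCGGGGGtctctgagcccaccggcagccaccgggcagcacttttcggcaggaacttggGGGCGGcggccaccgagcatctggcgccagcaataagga

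The first St3gal6 window was 38.7% G and C with 3 CpG and held 1 CCAAT and 1 ETS core, 59 and 41 bases before the start. The second was 64.7% G and C with 20 CpG and held 5 GC boxes and 2 overlapping EBF cores, which also overlap a GC box. No E-box was found in either. Such matches describe these windows only. St3gal1, St3gal2 and Nans had no entry in the promoter table.

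St3gal1 encodes the α2,3-sialyltransferase that caps core 1 O-glycans (chromosome 15, 67102875 to 67176946). In contrast to St3gal6 it was higher with WM-1119. At 3 days it had 40.8, 40.2 and 39.3 CPM in DMSO and 62.6, 65.9 and 65.1 CPM in WM-1119. At 6 days it had 33.6, 34.9 and 31.1 CPM in DMSO and 66.4, 70.8 and 69.7 CPM in WM-1119. The lowest WM-1119 library exceeded the highest DMSO library at each time by over 20 CPM. It was 1.61-fold higher at 3 days (log2 fold change 0.69 ± 0.06) and 2.08-fold higher at 6 days (1.06 ± 0.06), and all alternatives kept both past the threshold.

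The effect on St3gal1 at 6 days exceeded that at 3 days by 0.37 ± 0.08 on the log2 scale. Leaving out any 1 of 7 libraries ended this call: DMSO replicates 1 and 2 and WM-1119 replicates 1 and 3 of 3 days, and DMSO replicate 1 and WM-1119 replicates 2 and 3 of 6 days. It also ended without the 5 libraries that held Col1a1, at 0.49. The DMSO means were 40.1 ± 0.726 and 33.2 ± 1.93 CPM at 3 and 6 days and the WM-1119 means 64.5 ± 1.72 and 69.0 ± 2.30 CPM (SD, n = 3 each).

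St3gal2, a paralog of St3gal1 that also sialylates core 1 chains and gangliosides, was barely present (chromosome 8, 110919743 to 110974058). It had 16 to 47 counts per library, or 0.773 to 1.36 CPM. Its log2 fold changes were 0.03 ± 0.28 and 0.24 ± 0.27, so a change of the size seen in St6gal1 would not have been detectable at this depth. At 6 days the WM-1119 libraries, at 1.20, 1.36 and 1.16 CPM, lay just above the DMSO libraries, at 1.15, 1.15 and 0.813 CPM.

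The opposite movement of St3gal1 and St3gal6 can be read as their RPKM ratio within each library. St3gal1 stood at 0.331, 0.319 and 0.262 times the level of St3gal6 in DMSO at 3 days and at 1.14, 1.28 and 1.33 times in WM-1119. At 6 days the ratio was 0.195, 0.216 and 0.180 in DMSO and 1.14, 1.23 and 1.13 in WM-1119. St3gal6 was thus the more abundant of the pair in all 6 DMSO libraries and St3gal1 in all 6 WM-1119 libraries. That order rests on the deposited gene lengths, 5784 bases for St3gal1 and 1593 for St3gal6. By CPM, without the lengths, St3gal1 exceeded St3gal6 also in DMSO replicates 1 and 2 of 3 days, at 40.8 against 34.0 and 40.2 against 34.8 CPM. The shift of the ratio between groups does not depend on the lengths.

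**Figure D3:**
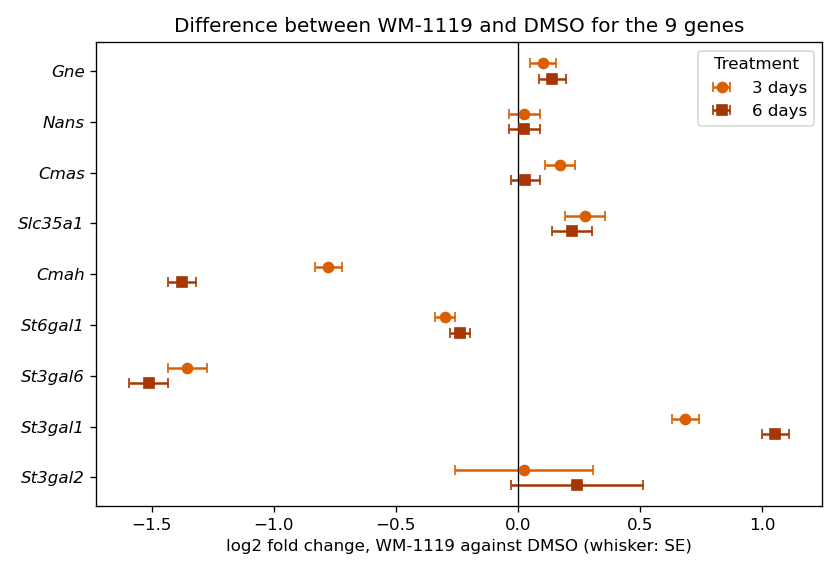
Log2 fold change of WM-1119 against DMSO with its standard error for the 9 genes at 3 days (circles) and 6 days (squares). Cmah and St3gal6 lie at the left, from -0.78 to -1.51, and St3gal1 lies at the right at 0.69 and 1.06. The genes of Neu5Ac supply lie from 0.03 for Nans to 0.28 for Slc35a1 at 3 days.

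In groups that did not overlap, 3 of the 9 genes were higher and 3 lower at 3 days, and 4 were higher and 3 lower at 6 days. Over all tested genes the groups did not overlap for 39.9% at 3 days (19.5% higher and 20.4% lower) and 41.3% at 6 days (21.4% higher and 19.9% lower). Without the 5 libraries that held Col1a1, a choice made with the values known, 4 of the 9 genes were called at 3 days: Cmah, St6gal1 and St3gal6 lower and St3gal1 higher. At 6 days, with 1 library against 1, their log2 fold changes were -1.26 for Cmah, -0.26 for St6gal1, -1.49 for St3gal6 and 1.16 for St3gal1. Those 4 genes were the called ones there, with the spread assumed to be that of the other groups. In bulk RNA a smaller share of cells with a transcript and less transcript per cell cannot be told apart.

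The vehicle cultures also differed between days. Cmah and St3gal6 were higher and St3gal1 lower in DMSO at 6 days than in DMSO at 3 days, with log2 fold changes of 0.25 ± 0.05, 0.35 ± 0.07 and -0.27 ± 0.06. In that comparison 0.809% of all genes were called, 0.358% higher and 0.450% lower. The 2 DMSO groups did not overlap for 6 of the 9 genes, 5 higher and 1 lower at 6 days, and for 16.7% of all genes, 7.75% higher and 8.90% lower. None of the 3 calls held when the 2 DMSO groups were fitted alone, without DMSO replicate 1 of 3 days or without DMSO replicate 2 of 3 days, where edgeR called 0 of the 9 genes and 3 had an unadjusted p below 0.05. DESeq2 called the 3 genes that edgeR called with all libraries. Without DMSO replicate 3 of 6 days only Cmah was called. The Cmah call also ended without DMSO replicate 1 or 2 of 6 days and without the 5 libraries that held Col1a1. The other 6 genes had log2 fold changes between -0.08 and 0.12 and were not called. The DMSO libraries are the same ones the treatment comparisons use.

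Other genes of the pathway were taken from 7 lists by function, drawn up with earlier results of these data known, and their adjusted p-values come from the fit across all genes. Among 16 other sialyltransferase genes 7 were tested. At 3 days edgeR called 0 of them, with 0 below an unadjusted p of 0.05 and 0 called by DESeq2. At 6 days 1 was higher and 2 were lower. The shares called over all genes were 24.4% at 3 days and 30.8% at 6 days. St6galnac6, which sialylates gangliosides and other chains, rose from a mean of 39.6 ± 0.257 CPM to one of 48.1 ± 1.89 CPM (log2 fold change 0.28 ± 0.05, adjusted p = 0.000381). St3gal5, the GM3 synthase gene, fell from 13.8 ± 0.726 to 9.84 ± 1.33 CPM (-0.48 ± 0.12, adjusted p = 0.00373). St8sia4, which encodes a polysialyltransferase, fell from 136 ± 13.6 to 111 ± 10.0 CPM (-0.30 ± 0.08, adjusted p = 0.00894), although its libraries overlapped. Without the 5 libraries that held Col1a1, with 1 library against 1, the log2 fold changes were 0.28 for St6galnac6, -0.46 for St3gal5 and -0.36 for St8sia4, and of these St8sia4 was called. None of the 7 had a log2 fold change as large in size as those of Cmah, St3gal6 or St3gal1 at the same time. Those genes come from the set selected on these values, so the choice shapes this comparison, which is not a test.

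Of 7 tested among 11 genes, mostly of sialic acid removal, recycling and O-acetylation, 5 were higher and 0 lower at 3 days. At 6 days 4 were higher and 0 lower. These counts and the medians below include Nanp, a gene of Neu5Ac synthesis. Over all genes 11.8% were called higher at 3 days and 15.7% at 6 days. The list had median log2 fold changes of 0.24 and 0.20 against 0.002 and -0.004 over all genes. Unadjusted p-values below 0.05 gave 5 higher and 0 lower at each time, and DESeq2 also called 0 lower. Siae encodes an esterase that removes 9-O-acetyl groups, which block CD22 binding. It had 8.69, 8.02 and 6.87 CPM in DMSO and 12.7, 13.3 and 14.3 CPM in WM-1119 at 3 days, a log2 fold change of 0.77 ± 0.10 (adjusted p = 5.39e-06). At 6 days the change was 0.82 ± 0.10 (adjusted p = 1.18e-06). Casd1, whose product adds O-acetyl groups to sialic acid, rose by 0.24 ± 0.06 at 3 days (adjusted p = 0.00544) and by 0.17 ± 0.06 at 6 days (adjusted p = 0.041). Its libraries of 6 days overlapped, with up to 76.5 CPM in DMSO and down to 75.8 CPM in WM-1119. The Casd1 call at 6 days ended when any of 5 libraries was left out: replicates 1 and 2 of DMSO and replicates 1 and 3 of WM-1119 at 6 days, and WM-1119 replicate 3 of 3 days.

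Renbp, which encodes a renin-binding protein with GlcNAc 2-epimerase activity, had 9.51 ± 0.901 CPM in DMSO and 15.3 ± 0.366 CPM in WM-1119 at 3 days (log2 fold change 0.68 ± 0.11, adjusted p = 4.69e-05) and 9.60 ± 1.47 against 15.9 ± 0.523 CPM at 6 days (0.72 ± 0.10, adjusted p = 1.29e-05). Ctsa, whose product protects the lysosomal sialidase, rose by 0.34 ± 0.05 and 0.28 ± 0.05 (adjusted p = 1.31e-05 and 0.000105). The sialidase gene Neu1 itself rose by 0.18 ± 0.06 at 3 days (adjusted p = 0.025), a gene named after its value was seen. That call ended when replicate 1 or 3 of DMSO was left out, and likewise replicate 1 or 2 of WM-1119. At 6 days Neu1 was not called, at 0.10 ± 0.06 (adjusted p = 0.181). Nanp, the phosphatase gene that completes Neu5Ac synthesis, and the lysosomal exporter gene Slc17a5 were not called. Without the 5 libraries that held Col1a1, 4 of the 7 were higher at 3 days and 3 at 6 days, the latter from 1 library against 1.

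Of 5 tested among 9 Siglec receptor genes 1 was higher and 1 lower at 3 days, while 1 rose and 2 fell at 6 days. Of all genes 24.4% and 30.8% were called. Cd22 was lower at both times, going from 251 ± 3.40 to 202 ± 3.53 CPM at 3 days (a log2 difference of -0.31 ± 0.05, adjusted p = 7.41e-05) and from 256 ± 21.9 to 174 ± 2.80 CPM at 6 days (-0.56 ± 0.05, adjusted p = 1.98e-08). Its libraries were 252, 254 and 247 CPM in DMSO and 198, 204 and 204 CPM in WM-1119 at 3 days. The libraries of 6 days had 265, 272 and 231 CPM in DMSO and 171, 174 and 177 CPM in WM-1119. Siglecg, the other main B cell Siglec, had log2 fold changes of 0.14 ± 0.08 and 0.01 ± 0.08 and was not called (adjusted p = 0.213 and 0.963).

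The other tested Siglec genes were rare. Siglech rose at 3 days by 1.49 ± 0.38 from 0.302 to 0.870 CPM (adjusted p = 0.00594), and at 6 days Siglec15 rose by 1.05 ± 0.26 and Mag fell by 0.89 ± 0.30 (adjusted p = 0.00321 and 0.0279). The Mag call ended when DMSO replicate 3 or WM-1119 replicate 2 of 6 days was left out, and with the replicate block among the libraries of 6 days (adjusted p = 0.0502). Macrophage markers summed to 4.20 to 5.29 CPM in DMSO and 8.13 to 9.41 CPM in WM-1119 at 3 days, and to 2.48 to 3.76 and 5.77 to 7.28 CPM at 6 days. Of those 7 markers 2 were tested and 1, Csf1r, rose, by 2.14 ± 0.21 and 2.25 ± 0.21 (adjusted p = 1.11e-07 and 3.08e-08). The mean of Csf1r went from 1.04 to 4.66 CPM at 3 days and from 0.835 to 4.14 CPM at 6 days. Cd68, the other tested marker, had means of 3.6 CPM in DMSO and 3.9 CPM in WM-1119 at 3 days. At 6 days Cd68 had 2.2 CPM in both, and it was not called at either time. The defining markers C1qa and C1qb had 0 counts in all groups and Adgre1 a group mean of at most 0.0454 CPM. The part of cells other than B cells in these values was not tested.

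Of 9 tested genes of UDP-GlcNAc supply 2 were higher and 1 lower at 3 days, where 24.4% of all genes were called. At 6 days 2 of the 9 were higher and 0 lower, where 30.8% of all genes were called. For falls at 6 days the unadjusted count was also 0, and DESeq2 called 0. Gnpda1, a glucosamine 6-phosphate deaminase gene that draws on the same hexosamine pool, went from a mean of 31.2 ± 1.25 CPM up to one of 46.1 ± 0.664 CPM at 3 days (log2 fold change 0.56 ± 0.06, adjusted p = 2.17e-07). At 6 days Gnpda1 rose by 0.58 ± 0.06 (adjusted p = 5.99e-08). Uap1l1 rose by 0.38 ± 0.09 and 0.50 ± 0.09 (adjusted p = 0.00287 and 0.000125). The UDP-GlcNAc pyrophosphorylase gene Uap1 fell by 0.19 ± 0.06 at 3 days (adjusted p = 0.0221), a call that ended when DMSO replicate 1 or either replicate 2 or 3 of WM-1119 was left out. Gfpt1, the entry enzyme gene of the pathway, was not called.

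**Figure D4:**
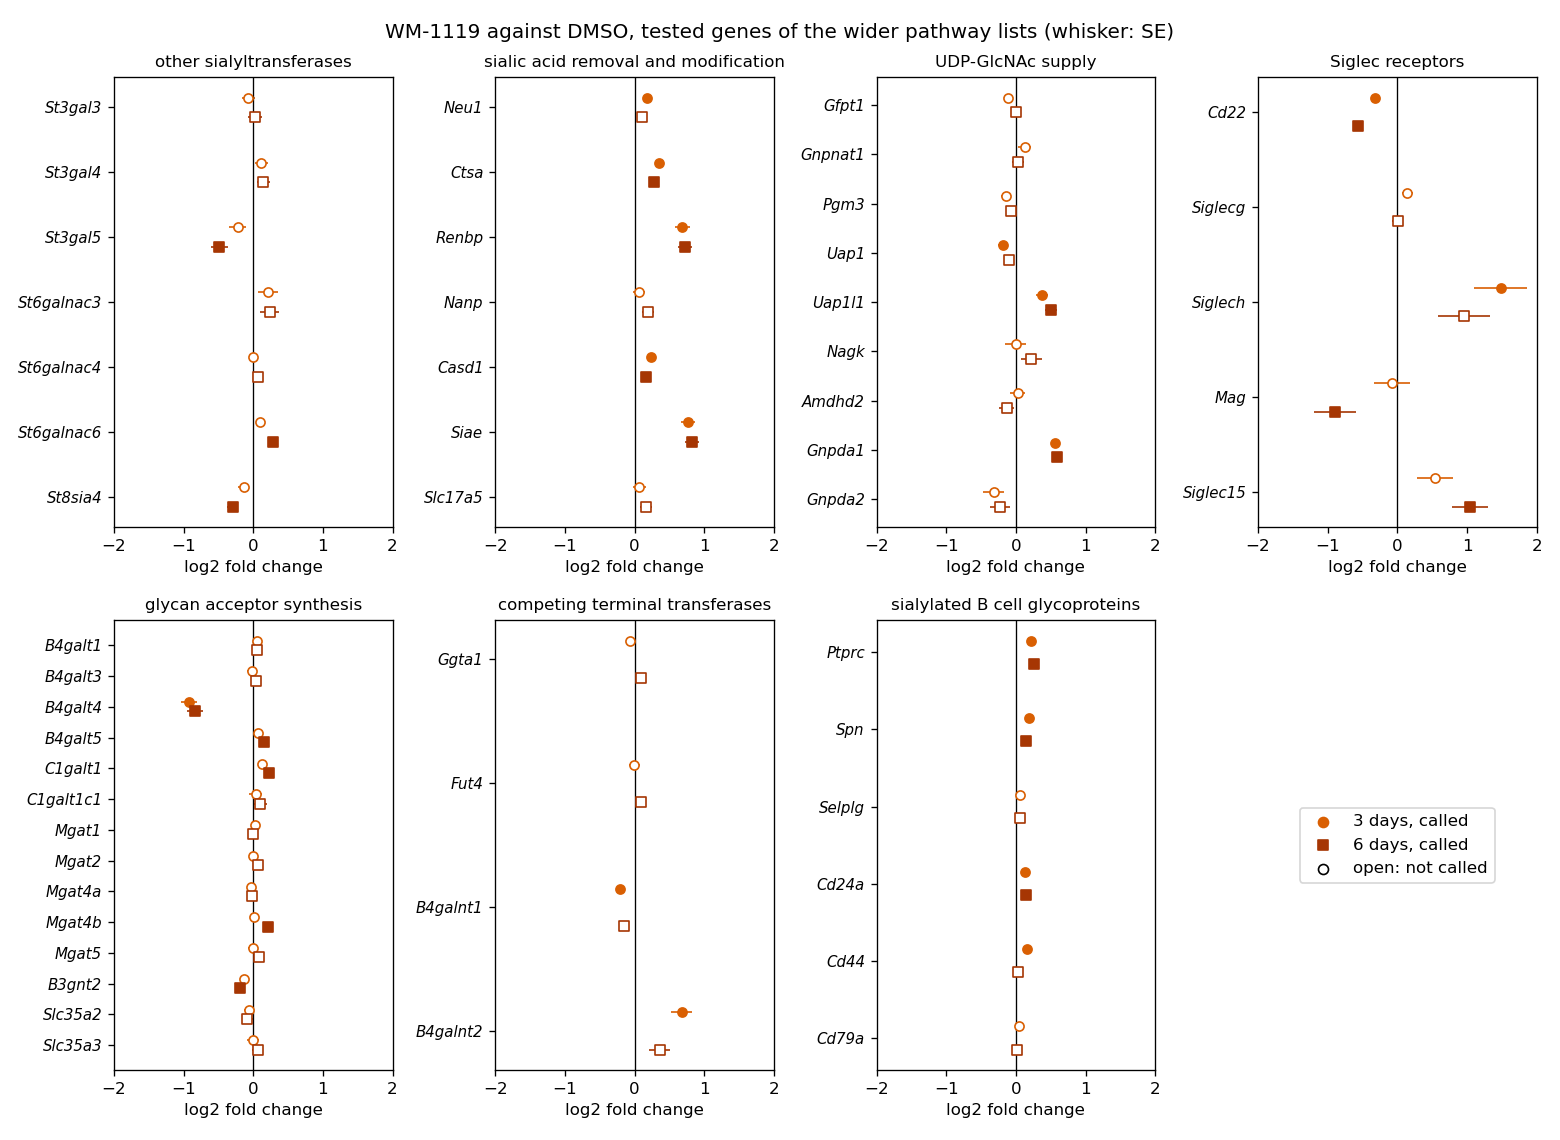
Log2 fold change with its standard error at 3 days (circles) and 6 days (squares) for the tested genes of the 7 pathway lists, with filled symbols for genes called at an adjusted p below 0.05. Siae and Renbp lie between 0.68 and 0.82 at both times, and Cd22 lies at -0.31 and -0.56.

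Of 14 tested among 18 genes of enzymes that build the acceptor glycans 0 were higher and 1 lower at 3 days, and 3 were higher and 2 lower at 6 days. The shares over all genes were again 24.4% and 30.8%. For rises at 3 days the count at an unadjusted p below 0.05 was also 0 and DESeq2 called 0. B4galt4, a galactosyltransferase gene, had 9.89 ± 0.504 CPM in DMSO and 5.21 ± 0.350 CPM in WM-1119 at 3 days (log2 fold change -0.93 ± 0.12, adjusted p = 3.13e-06). At 6 days B4galt4 fell by 0.83 ± 0.12 (adjusted p = 1.16e-05). The core 1 synthase gene C1galt1, whose product builds the acceptor of ST3GAL1, rose by 0.22 ± 0.06 at 6 days (adjusted p = 0.00638), a call lost without WM-1119 replicate 1 of 6 days. B3gnt2, which extends poly-LacNAc chains, fell by 0.19 ± 0.05 at 6 days (adjusted p = 0.00412). Mgat4b, an N-glycan branching enzyme gene, rose by 0.21 ± 0.06 (adjusted p = 0.00683), a call lost without DMSO replicate 1 of 6 days. B4galt5, the lactosylceramide synthase gene, rose by 0.15 ± 0.06 (adjusted p = 0.0447), a call lost in 12 of 22 alternatives. B4galt1, the main galactosyltransferase gene of N-glycans, was not called at either time. Gcnt1, which encodes the core 2 branching enzyme, was at or below 0.138 CPM in all group means and was not tested.

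Another list held genes of transferases that add sugars other than sialic acid at or near the ends of glycans, and 4 were tested. B4galnt2 rose by 0.68 ± 0.15 and B4galnt1 fell by 0.21 ± 0.06 at 3 days (adjusted p = 0.00186 and 0.0143), where 24.4% of all genes were called. The B4galnt1 call ended without WM-1119 replicate 1 or 2. At 6 days, where 30.8% of all genes were called, edgeR called 0 of the 4, with 2 below an unadjusted p of 0.05 and 0 called by DESeq2, while the fit with the replicate block called 1 lower. In DMSO, B4galnt1 was higher at 6 than at 3 days by 0.28 ± 0.06 (adjusted p = 0.0235), a call lost without any 1 of the DMSO libraries of 3 days or replicate 3 of 6 days. Ggta1, which encodes the α1,3-galactosyltransferase of mouse cells, had 83.1 ± 1.25 and 79.7 ± 3.23 CPM at 3 days and was not called. Of 6 genes of sialylated B cell glycoproteins 4 were higher at 3 days and 3 at 6 days, with 0 lower at either time, 0 lower at an unadjusted p below 0.05 and 0 by DESeq2. Over all genes 11.8% and 15.7% were called higher. Ptprc, the CD45 gene, rose by 0.22 ± 0.06 and 0.26 ± 0.06 (adjusted p = 0.00602 and 0.000962), and Spn, the CD43 gene, by 0.19 ± 0.05 and 0.14 ± 0.05 (adjusted p = 0.00431 and 0.0251). Cd44, a hyaluronan receptor gene, rose by 0.16 ± 0.05 at 3 days (adjusted p = 0.0105), and at 6 days its log2 fold change was 0.04 ± 0.04 (adjusted p = 0.59) with overlapping libraries. Cd24a rose by 0.13 ± 0.04 and 0.15 ± 0.04 (adjusted p = 0.0355 and 0.0146). The Cd24a call was lost at 3 days without any DMSO library or WM-1119 replicate 1 or 2 of that day, and at 6 days without replicate 1 or 2 of DMSO or replicate 2 of WM-1119. The Ptprc call at 3 days ended without DMSO replicate 2, and the Spn call at 6 days when replicate 1 or 2 of DMSO, or replicate 2 or 3 of WM-1119, was left out.

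Without the 5 libraries that held Col1a1 further calls of these lists ended. At 3 days, with 3 DMSO and 2 WM-1119 libraries left, the log2 fold changes were then -0.20 for B4galnt1, 0.15 for Neu1, -0.16 for Uap1 and 0.14 for Cd24a, against -0.21, 0.18, -0.19 and 0.13 with all libraries. At 6 days the comparison was of 1 library against 1. The log2 fold changes were then 0.10 for Casd1, -0.69 for Mag, 0.66 for Siglec15, 0.12 for C1galt1, 0.15 for Mgat4b and 0.05 for Cd24a, each smaller in size than with all libraries. They were 0.13 for Spn, -0.22 for B3gnt2 and 0.27 for B4galt5, against 0.14, -0.19 and 0.15.

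The genes whose pattern over the 12 libraries was most like that of Cmah were Slamf7, Elovl4, Slc30a4 and Rhoq. Likeness was the root mean square difference of log2 CPM centred on each gene's own mean, among 9121 genes of at least 5 CPM. It was 0.0939 for Slamf7, 0.118 for Elovl4, 0.12 for Slc30a4 and 0.125 for Rhoq. The centred group means of Cmah were 0.41 and 0.66 in DMSO and -0.37 and -0.71 in WM-1119 at 3 and 6 days, and those of Slamf7 were 0.44, 0.59, -0.36 and -0.67 in the same order. The genes most like St6gal1 were Eif5b, Fam185a, Ptk2 and Arsb, at 0.0296 to 0.0364.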

How the data were processed

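Messenger RNA of 12 libraries of 1 mouse lymphoma line was measured in 4 groups of 3. The authors deposited whole-number read counts per gene, made with featureCounts on build mm10 per the submitters' processing notes. The sources used here do not give the aligner, the strand setting or the treatment of multi-mapping reads. The gene length in bases beside the counts is deposited by the authors as another value and was used for RPKM. Of 27179 entries 874 without an identifier, 0.305% to 0.362% of a library's counts, were left out. Symbols came from RefSeq (GRCm38.p6) for 25275 of 26305 identifiers. The 9 genes and all lists were chosen with earlier results of these data known.

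Counts were scaled with TMM factors, filtered with filterByExpr and tested in 1 quasi-likelihood fit of 4 group means (edgeR 4.0.16, limma 3.58.1, R 4.3.3), two-sided, with Benjamini-Hochberg adjustment over 11997 genes and a threshold of 0.05. The common biological coefficient of variation was 5.69%. The scripts were tested on simulated data. An exact permutation of 3 against 3 cannot go below 0.1. Named genes are the 9, up to 4 called genes of each list by smallest p in each treatment comparison, up to 2 in the others, and the 4 genes most like Cmah and St6gal1 in pattern (prior count 0.5). Neu1, Csf1r and genes named as not called were chosen after their values were seen. Alternatives were RLE and upper-quartile scaling, 2 filters, DESeq2 1.42.0, limma voom, fits of 2 groups, a replicate block and leaving out libraries. Deviations from group means correlated weakly between same-numbered DMSO and WM-1119 libraries of 6 days (0.20, 0.15 and 0.27), but not at 3 days (-0.02, 0.03 and 0.01). Replicate 3 of WM-1119 at 3 days and replicate 3 of WM-1119 at 6 days also correlated at 0.15. At 6 days each DMSO library correlated best with the WM-1119 library of the same number, and at 3 days only replicate 2 did. Whether the numbers mark paired cultures was not tested beyond these correlations.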

Additional observations from a re-analysis of the deposited data

Results flagged for a closer look

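For Cmah and St3gal1 the effect of WM-1119 differed between 3 and 6 days by the test of that difference in the fit across all genes. The effect at 6 days minus that at 3 days was -0.60 on the log2 scale for Cmah and 0.37 for St3gal1. Both genes were named with these results known, so the values are a description. In DMSO both genes also differed between the days, in the direction opposite to their difference with WM-1119, and the contrasts share those DMSO libraries. The part of the DMSO cultures in this difference was not tested.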

How the results depend on the processing

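The log2 fold changes of Cmah, St6gal1, St3gal6 and St3gal1 kept their direction and stayed past the threshold at both times under every alternative. No called value reversed. The refits reuse the libraries on which the 9 genes were chosen, so they describe dependence on processing and are no independent support for these genes. Over all genes, a fit without the 5 libraries that held Col1a1, chosen after seeing the data and with 1 library left in each group of 6 days, gave 1516 calls at 6 days against 3693, 5 against 87 for the change between times and 537 against 97 for DMSO at 6 days against DMSO at 3 days. With them left out, edgeR called 0 of the 9 genes for the change between times, while 2 had an unadjusted p below 0.05 and DESeq2 with all libraries called 2. For that change, leaving out 1 library gave 46 to 217 calls over all genes and 1 to 2 among the 9. For the DMSO comparison it gave 41 to 158 over all genes and 0 to 3 among the 9. There no filter on low counts gave 173 calls, DESeq2 171 and the replicate block 167, while the fit of those 2 groups alone gave 47 over all genes and 0 among the 9, of which 3 had an unadjusted p below 0.05. The block ended no call among the 9 genes. At 6 days the block changed only the Mag call and the count of transferases of other sugars among the list results. At 3 days, where same-numbered libraries did not correlate, the block called 1 other sialyltransferase gene lower against 0. It also called 2 acceptor enzyme genes lower against 1. The causes were not tested. Depth limits St3gal2, and counts cannot tell alternative starts apart.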
